A study of Mus musculus with 10 samples.

Results

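Of the 153924 accessible sites identified by ATAC-seq in mouse fibroblasts, 2232 lay at the 3′ end of a protein-coding gene. A site was counted here when it was on chromosomes 1 to 19, overlapped 500 bp either side of the annotated 3′ end of a protein-coding gene of GRCm38 (mm10), and did not overlap 1 kb either side of any annotated transcript start. These sites made up 1.45% of the list and 1.80% of the 124339 autosomal sites away from starts. A further 1087 sites met the first condition but lay within 1 kb of a start and were not counted. ATAC-seq maps DNA that the transposase Tn5 can reach and cut, which is taken as open chromatin.

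The cells were immortalized mouse embryo fibroblasts (iMEF) that had lost their endogenous Ash2l and depended on a lentiviral fusion of an engineered FKBP12, HA tags and human ASH2L, a core subunit of the KMT2 complexes that methylate histone H3 at lysine 4. The agent dTAG-13 is a PROTAC that brings the FKBP part to an E3 ligase, so that the fusion protein is degraded. The 10 libraries fell into 5 groups of 2 replicates each, namely untreated cells and cells treated for 30 min, 4 h, 8 h or 24 h. The untreated libraries are titled WT, and the paper's ATAC-seq methods name ethanol for control. For its ATAC-seq the paper names cells of the clone NG3. All groups, the untreated one included, carried the same fusion in place of the endogenous protein. The sites analysed are a single list of the sites identified across all samples, with no read count or score per library. Therefore no value per sample, no effect of dTAG-13 and no replicate error was analysed here, the sequencing depth is unknown, and no test between conditions was run. The intervals given are 95% intervals, which cover the sampling of sites or genes only, and sites and genes are not replicates. A site in the promoter window was found for all 12 fibroblast markers examined, among them Col1a1, Vim and Thy1. It was also found for 4 of 6 epithelial, 3 of 4 endothelial, 3 of 3 neuronal, 2 of 3 hepatocyte and 2 of 6 blood markers, so that a promoter site alone separated fibroblasts poorly from other cells. The leukocyte genes Itgam, Ptprc, Spi1 and Cd3e had none.

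The 3′ end of a coding gene is where the transcript is cleaved and polyadenylated, usually downstream of the signal AATAAA, and RNA polymerase II continues beyond it before it is released. Open chromatin at such places can belong to a regulatory element of the same gene or of another gene, or to the binding of an architectural protein such as CTCF, which together with cohesin sets the borders of chromatin loops. In fibroblasts many distal elements are bound by AP-1, the dimers of FOS and JUN proteins, and by TEAD proteins, the DNA-binding partners of the coactivator YAP.

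To show what these sites look like, sequences were read from the RefSeq copy of GRCm38.p6. The first set is shown because it holds the 5 matches to the CTCF consensus that lay nearest to a gene end. Each is written 5′ to 3′ on the strand of the match, and the capitals mark the 12 bases of the match.
Nagpa, chr16:5195264-5195293, minus strand: taaaacaagCCACCAGGGGGCgtgtgaggt
Evi5l, chr8:4211264-4211293, plus strand: actaaaggaCCACCAGGGGGCcagagagat
Hs3st5, chr10:36834406-36834435, minus strand: cgctggaggCCAGCAGGGGGCgcacaaagc
Trim50, chr5:135368018-135368047, plus strand: ccaacttgtCCAGCAGAGGGCagaaacatt
Mucl3, chr17:35635775-35635804, plus strand: tacagaagcCCAGCAGAGGGCgcctgtcct

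The middle of the match lay 11 bp downstream of the end of Nagpa, which encodes the enzyme that uncovers the mannose 6-phosphate tag of lysosomal proteins. It lay 21 bp downstream for Evi5l, 23 bp for Hs3st5, a heparan sulfate sulfotransferase, and 27 bp for Trim50. The match at Mucl3 lay inside the gene, at -37 bp. At Nagpa, Evi5l and Trim50 the match had the orientation of the gene, whereas at Hs3st5 and Mucl3 it had the opposite one.

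The next set was chosen for AP-1, whose consensus is TGACTCA on one strand and TGAGTCA on the other. The 4 single windows come from the sites with the most matches after Itgam and show 1 match each in capitals, on the plus strand.
Pth2r, chr1:65389748-65389774: tcagtgtgttTGAGTCAtgaaaacatt
Tmem43, chr6:91488604-91488630: ttaaagtaaaTGACTCAtgcttcatga
Rps15a, chr7:118104817-118104843: agaatgatggTGACTCAtcatctttgc
Kcnn4, chr7:24387414-24387440: ctgccccaagTGAGTCAgagaccagtg

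The whole sites held 4 AP-1 matches at Pth2r, Tmem43 and Rps15a and 3 at Kcnn4, whose product is a calcium-activated potassium channel. The site with the most, 5, lay 446 bp downstream of Itgam, the integrin alpha M gene of myeloid cells, which had no promoter site in the list. It was 260 bp wide, and 250 bases of it (chr7:128118942-128119191, plus strand, in an annotated intron of a coding gene) are shown with the 5 matches in capitals.
Itgam: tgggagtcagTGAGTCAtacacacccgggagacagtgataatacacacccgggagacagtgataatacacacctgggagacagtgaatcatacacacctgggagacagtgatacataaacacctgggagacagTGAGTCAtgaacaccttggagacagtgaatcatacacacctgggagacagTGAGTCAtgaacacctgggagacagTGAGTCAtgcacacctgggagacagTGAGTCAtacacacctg
All matches of this site fell in copies of one short tandem repeat, of which none is soft-masked in the genome file (0% of the site). Reads that fit several copies cannot be placed with certainty, and how they were handled at this site was not tested.

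A last set shows the CpG-rich end of the range. The 5 sites with the most CpG per base lay at Nrtn, Otud7a, Gdf7, Snx20 and Grik5, with 13.9, 13.2, 12.7, 12.0 and 11.3 CpG per 100 bases, against a median of 1.13 over all sites at gene ends. The 100 bases richest in CpG outside UTRs are given for Nrtn and Otud7a, on the plus strand, with each CpG in capitals.
Nrtn, chr17:56751502-56751601: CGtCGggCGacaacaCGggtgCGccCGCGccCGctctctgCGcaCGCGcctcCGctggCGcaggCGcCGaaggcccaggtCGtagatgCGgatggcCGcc
Otud7a, chr7:63758500-63758599: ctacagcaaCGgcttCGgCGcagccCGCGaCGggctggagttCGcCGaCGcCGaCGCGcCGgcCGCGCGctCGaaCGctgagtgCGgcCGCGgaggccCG
These segments held 18 and 22 CpG. Nrtn encodes neurturin and Gdf7 a bone morphogenetic protein, both secreted ligands, and Snx20 a sorting nexin. The sites at Nrtn, Otud7a, Gdf7 and Snx20 had their middle in a coding exon, and the one at Grik5, a kainate receptor subunit, had it in a 3′ UTR.

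Of 20807 coding genes, 2270 had a site at the 3′ end (10.9%). Of the 15058 genes with a site within 1 kb of one of their own starts, here called a promoter site, 1915 had one (12.7%). Because ends close to a start could not be counted, the shares were also taken over the 16622 genes with no start within 1500 bp of their end, of which 2160 had a site (13%, interval 12.5 to 13.5). Among these, ends of genes with a promoter site had a site in 1825 of 12259 cases (14.9%, 14.3 to 15.5). Ends of genes without a promoter site had one in 335 of 4363 (7.68%, 6.92 to 8.51). Sites at gene ends were thus found more often at genes whose promoter was also open, although 335 ends were open where the list held no promoter site of the gene.

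Most ends carried a single site. At 2140 genes there was 1 site, at 126 there were 2 and at 4 there were 3. The last were Ints7, a subunit of the Integrator complex, Endov, an endonuclease of inosine-containing RNA, Nup50, a nucleoporin, and Gnao1, a G protein alpha subunit. At Ints7 the sites were 860, 398 and 490 bp wide, and the middle one of these covered the end. At Endov 2 narrow sites of 250 and 197 bp lay in the 3′ UTR, and another of 379 bp began 20 bp downstream of the end. Conversely, 125 sites (5.60%) lay at 2 or more distinct end positions, a position shared by several genes being counted once.

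The share differed little with the arrangement of the neighbouring gene. It was 13.5% where the next gene was convergent within 5 kb, 13% where it was convergent but farther, 14.2% and 12.8% for tandem neighbours within and beyond 5 kb, and 12.4% where the end lay inside another coding gene. Gene length made a larger difference. Among genes with a promoter site the share was 11.3% for genes shorter than 5 kb, 18.7% from 5 to 20 kb, 14.2% from 20 to 50 kb, 13.3% from 50 to 100 kb and 12.2% above.

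Chromosome 15 stood apart, with a site at 144 of 637 ends (22.6%, 19.5 to 26), followed by chromosome 10 with 17.8%, 19 with 17.1% and 18 with 15.9%. The other 15 autosomes ranged from 10.1% to 14.5%. With genes limited to those having a promoter site, chromosome 15 was at 25% (21.4 to 28.9), chromosomes 10 and 19 both at 18.8% and the rest between 11.5% and 16.1%. Of these, chromosomes 15 and 10 also held many other sites. Chromosome 15 held 85.7 and chromosome 10 held 71.2 of the other sites away from starts per Mb, against 40.3 to 58.2 on the 15 chromosomes with lower shares, 51.3 on chromosome 18 and 59.2 on chromosome 19. These other sites had a median width of 524 bp on chromosome 15 and 523 bp on chromosome 10, against 557.5 to 582 bp on the 15. The positions carry no read depth or copy number of a chromosome, and the part of these or of the density of sites in the shares at gene ends was not tested.

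**Figure D1:**
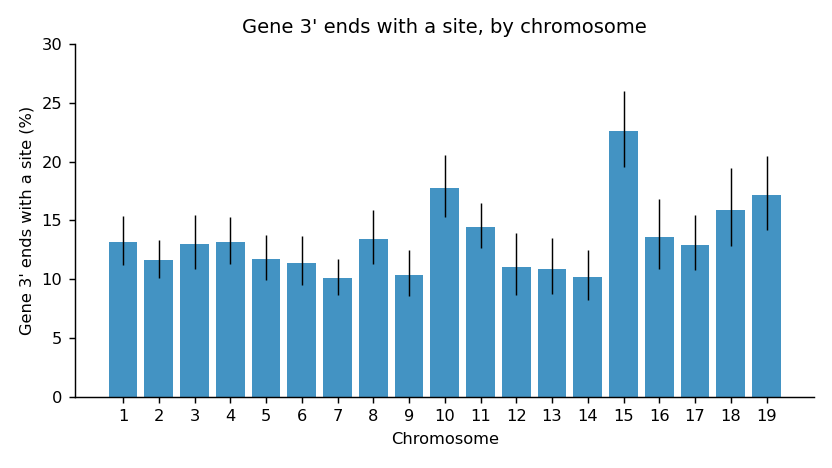
Share of coding gene 3′ ends with a site (y axis, %) for each autosome (x axis), over genes with no start within 1500 bp of the end, with 95% Wilson intervals as error bars. Chromosome 15 is highest at 22.6%, and chromosomes 10, 19 and 18 follow at 15.9 to 17.8%.

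To see whether the end itself was a preferred position, the share of ends covered by a site was measured at each 100 bp from 5 kb inside to 5 kb beyond the end. This was done over 7074 ends of genes of at least 10 kb with no start within 6 kb. At genes with a promoter site (5709 ends) the share was 4.61% at 5 kb inside the gene and 5.55% at 500 bp inside. It was 5.20% (4.66 to 5.81) at the end itself, 7.18% at 500 bp beyond and 8.46% (7.77 to 9.21) at 2 kb beyond, and back at 5.75% at 5 kb. Accessibility at these genes was therefore highest not at the end but in the flank downstream of it. At genes without a promoter site (1368 ends, an end shared by genes of both kinds being counted in both) the share was 2.27% at 5 kb inside, 3.14% at the end, 3.07% at 2 kb beyond and 3.95% at 5 kb.

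The same asymmetry was seen per gene. Among genes with a promoter site, 1310 (22.9%, 21.9 to 24.1) had a site between 1 and 3 kb downstream of the end and none in the matching stretch inside the gene. The reverse held for 795 (13.9%, 13.1 to 14.8), and 287 had both. Among genes without a promoter site the numbers were 144 (10.5%) and 120 (8.77%), with overlapping intervals.

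**Figure D2:**
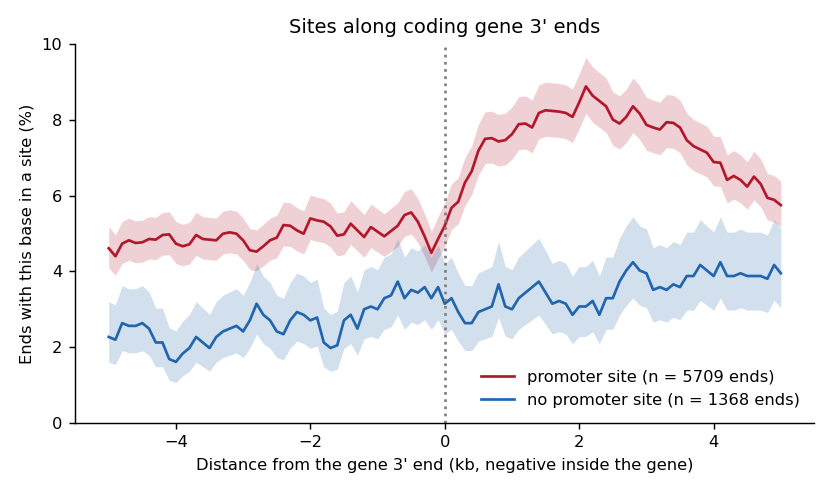
Share of gene ends at which a given base lies in a site (y axis, %) against the distance from the 3′ end (x axis, kb, negative inside the gene), for genes with (red) and without (blue) a promoter site, with 95% Wilson intervals as bands. The red line stays near 5% inside the gene and is at 8.46% at 2 kb beyond the end, whereas the blue line lies between 1.61% and 4.24% throughout.

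By position, 764 sites (34.2%) lay over the end, 848 (38.0%) wholly downstream and 620 (27.8%) wholly inside the gene. The middle of the site was in a 3′ UTR for 748 sites (33.5%), in a coding exon for 139 (6.23%), in an intron for 211 (9.45%), in another exon for 38 and outside coding genes for 1096 (49.1%). These shares follow in part from the rule. Of the sites, 315 lay more than 400 bp from the end. Just inside the limit, at 500 bp, were the sites at Foxa3, Esyt2 and Dab2, and 1 bp farther out lay those near Vmn2r81, Irx4, Colec10 and Crat.

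Sites at gene ends had a median width of 662 bp (641 to 678), compared with 565 bp for the other 122107 sites away from starts. However, an overlap rule favours wide sites, and those over the end had a median of 824 bp, compared with 575.5 bp for those inside the gene and 573.5 bp for those downstream. When only sites with their middle within 500 bp of the end were taken, the median was 549 bp (524 to 576), against 567 bp for the others. The larger width thus depended on the overlap rule. Among the 5 widest were those at Adamts1 (3167 bp, over the end), Rnd3 (3089 bp, 302 bp downstream), Olfr750 (3063 bp, 180 bp downstream) and Lmod1 (2768 bp, over the end). Adamts1 encodes a secreted matrix protease and Lmod1 a leiomodin of smooth muscle. Olfr750 belongs to the olfactory receptors, whose known place of expression is the olfactory epithelium.

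The DNA of these sites was richer in G and C than that of the other sites away from starts. In the middle 200 bp the median GC content was 49.0% (48.5 to 49.5), compared with 45.5% for other sites in coding genes and 44.5% for sites outside them. A total of 90 sites (4.03%) were CpG island-like, meaning a GC content above 50% and more than 0.6 of the CpG that base composition predicts, against 0.641% of the other sites. Neither trait was particular to gene ends. Other sites with their middle in a coding exon had a median GC content of 53.5%, and 12.6% of them were island-like, and the median GC content lay between 47% and 50% in every distance class within 10 kb of an end. Sites at gene ends were also closer to starts, with a median distance of 5607.5 bp against 14989 bp, and 23.5% against 9.74% had a start within 3 kb of their middle. Repeats took a similar part, with a median of 10.0% and 10.5% of masked bases.

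Consensus sequences were then searched on both strands in the middle 200 bp of each site. CTCF matches were present in 128 sites at gene ends (5.73%, 4.84 to 6.78), in 2.91% of other sites in coding genes and in 3.06% of those outside. AP-1 matches were present in 260 (11.6%, 10.4 to 13), compared with 15.9% and 16.7%. The EGR consensus (GCGTGGGCG or GCGGGGGCG) was rare, with 12 sites (0.538%, 0.308 to 0.937) against 0.106% of all other sites and 1.03% of those in coding exons. The TEAD consensus ACATTCC was found in 5.11% against 6.45% and the RUNX consensus (TGTGGTTA or TGTGGTTT) in 3.32% against 5.23%. The shares for the E-box CACGTG (2.82% and 2.54%), NFI (1.16% and 1.05%), SRF (1.39% and 1.5%) and ETS (CCGGAAGT, 0.179% in both) lay within overlapping intervals, and the NRF1 consensus occurred in 1 site. The polyadenylation signal AATAAA, searched on either strand, was present in 21.2% of sites at gene ends and 23.1% of the others. A match of this kind is a string of letters and not a measured binding site.

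**Figure D3:**
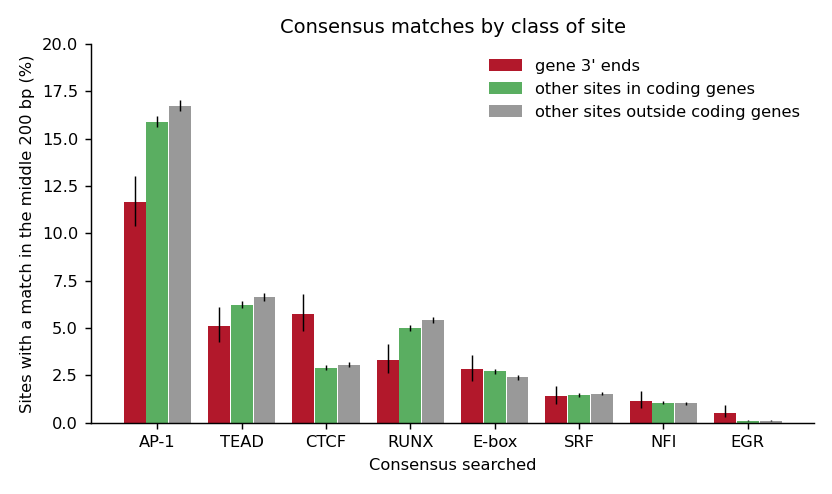
Share of sites with a consensus match in the middle 200 bp (y axis, %) for 8 consensus sequences (x axis), in sites at gene 3′ ends (red), other sites in coding genes (green) and other sites outside them (grey), with 95% Wilson intervals. CTCF and EGR are higher and AP-1 and RUNX lower at gene ends than in both other classes.

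The CTCF share varied with GC content, so it was compared within classes of GC. Between 50% and 55% GC, 8.48% of sites at gene ends had a match compared with 4.39% of the others. Between 55% and 60% it was 8.38% compared with 5.10%, and between 40% and 45% it was 4.11% compared with 2.27%. The intervals overlapped between 45% and 50%, with 4.99% (3.40 to 7.26) compared with 3.24% (3.04 to 3.44), and below 40%, with 3% (1.64 to 5.44) compared with 1.82% (1.68 to 1.98). Above 60% GC the shares were 3.92% and 3.97%. For AP-1 the lower share was seen between 45% and 50% GC, with 12.4% compared with 18%, and between 50% and 55%, with 11.1% compared with 16.6%. In the other GC classes the intervals overlapped. The shares were 12.3% compared with 14.8% below 40%, and 14.8% (11.5 to 18.8) compared with 17.7% (17.3 to 18.2) between 40% and 45%. They were 11.1% (8.14 to 14.9) compared with 12.6% (12.0 to 13.4) between 55% and 60%. Above 60% they were 5.39% (3.04 to 9.40) compared with 8.42% (7.43 to 9.53).

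Neither share changed sharply at the end itself. Distances were taken from the middle of the site to the nearest end, over sites away from starts. CTCF matches were present in 5.36% of sites 5 to 10 kb inside the gene, 5.77% within 500 bp inside and 6.65% (5.00 to 8.78) within 500 bp beyond. The share was 6.60% (5.11 to 8.50) at 500 bp to 1 kb beyond, 3.90% (3.06 to 4.96) at 1 to 2 kb beyond and 5.68% at 5 to 10 kb beyond. Inside the gene it was 4.49% at 500 bp to 1 kb and 4.37% at 1 to 2 kb. AP-1 matches ranged from 10.4% at 500 bp to 1 kb beyond to 14.7% at 5 to 10 kb inside. Over all sites within 10 kb of an end the CTCF share was 5.25% (4.95 to 5.57), and over sites farther away it was 2.62% (2.52 to 2.72). A CTCF share above that of sites farther away was thus found over a broad stretch around coding gene ends, and not in the 500 bp window in particular. Within this stretch the share was not even, and it was lower at 1 to 2 kb beyond the end than in the first 1 kb beyond.

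**Figure D4:**
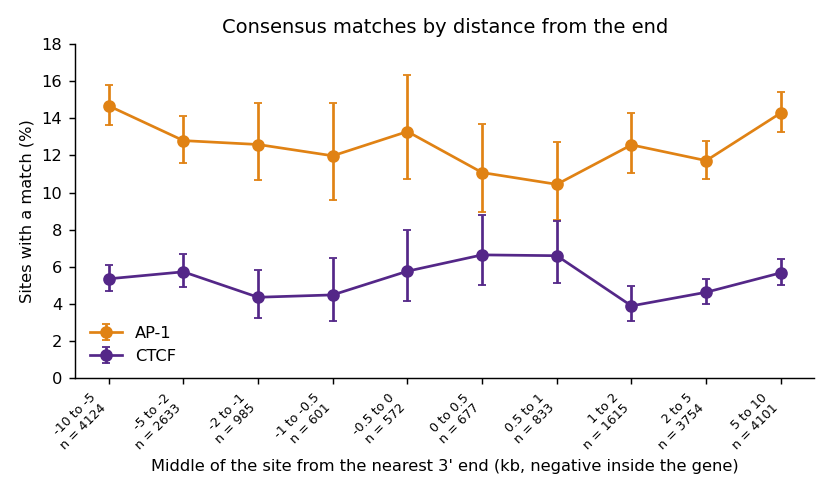
Share of sites away from starts with an AP-1 (orange) or CTCF (purple) match in the middle 200 bp (y axis, %), by distance of the middle of the site from the nearest coding gene 3′ end (x axis, kb, negative inside the gene), with 95% Wilson intervals and the number of sites in each bin. CTCF lies between 3.90% and 6.65% and AP-1 between 10.4% and 14.7%, with no step at the end itself. CTCF is lowest at 1 to 2 kb beyond the end.

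Seen from the gene ends, sites were frequent where a CTCF match was present. Of 180 ends, with no start within 1500 bp, whose 1 kb window held a match, 122 (67.8%, 60.6 to 74.2) had a site, compared with 2014 of 16396 without one (12.3%). At genes with a promoter site the shares were 71.4% and 14.2%, and at genes without one they were 55% (22 of 40 ends) and 6.98%. An AP-1 match in the window went with a site at 494 of 2546 ends (19.4%) against 11.7% without one, and an EGR match at 18 of 61 (29.5%) against 12.8%. GC content moved with these shares. From windows below 40% GC to windows of at least 55%, the share of ends with a site went from 7.24% to 30.7%. Within the lowest of these GC classes a CTCF match still went with a site at 11 of 20 ends (55%), compared with 7.05% without a match.

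This, too, was not particular to the end. When windows of the same size were centred 4 kb and 2 kb inside and 2 kb and 4 kb beyond the 7074 ends used for the profile, those with a CTCF match held a site in 62.3%, 64.7%, 69.2% and 71.6% of cases, compared with 73% (61 to 82.4) at the end. Windows without a match held a site in 9.99%, 10.8%, 16.3% and 14.7% of cases, compared with 12.4% at the end.

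In whole sites, 207 sites at gene ends (9.27%) held a CTCF match, against 4.50% of other sites. Considering sites at a single end, 80 of 127 matches downstream of the end (63.0%, 54.3 to 70.9) had the orientation of the gene. Among matches upstream of the end it was 34 of 74 (45.9%, 35.1 to 57.2), and in other sites with their middle in an intron of 1 coding gene 1109 of 2327 (47.7%, 45.6 to 49.7).

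The genes that carried a site at their end were then described by gene list, each read against 10.9% of all coding genes and 12.7% of those with a promoter site. The highest shares were found for genes of actin and contractility, 11 of 36 (30.6%, 18 to 46.9), and for targets of YAP and TEAD, 7 of 23 (30.4%, 15.6 to 50.9). All 23 of the latter had a promoter site and no start within 1500 bp of the end. Of all genes that met both conditions 14.9% (14.3 to 15.5) had a site, just below the lower bound of this list. Immediate early genes followed with 7 of 30 (23.3%, 11.8 to 40.9), collagens with 9 of 42 (21.4%, 11.7 to 35.9) and keratins with 9 of 49 (18.4%, 9.98 to 31.4). Of the 49 keratin genes only 16 had a promoter site. For the immediate early genes, collagens and keratins the interval held the share of genes with a promoter site.

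In the actin group the genes with a site included Acta2, Actg1, Actg2, Cnn1, Lpp, Myl12a, Myl6, Pfn1, Tln1 and Zyx. Acta2, the smooth muscle actin of myofibroblasts, had 2, one of 1696 bp beginning 139 bp downstream of the end and one of 443 bp inside the gene, and the first also lay at the end of the neighbouring Stambpl1. Actg1, a cytoplasmic actin, had a site of 2177 bp from 278 bp downstream of its end, and Actg2, the enteric smooth muscle actin, had one of 1093 bp over its end. Tln1 encodes talin, which links integrins to actin, and had a site of 1285 bp from 160 bp downstream. Zyx encodes the focal adhesion protein zyxin, and its site of 1046 bp lay inside the gene and also at the end of Epha1. The sites of Cnn1, Lpp, Myl12a, Myl6 and Pfn1 were between 234 and 662 bp wide, and that of Myl6 also lay at the end of Smarcc2.

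All 7 YAP and TEAD targets had a promoter site, and 4 of their sites lay wholly downstream of the end. They were the sites of Amotl2 (1728 bp, 374 bp from the end), Ankrd1 (1517 bp, 413 bp), Ccn1 (1389 bp, 390 bp) and Nuak2 (811 bp, 94 bp). Ccn1 encodes the secreted matricellular protein CYR61 and Ankrd1 an ankyrin repeat protein, both used as readouts of YAP activity. The sites of Myof (699 bp) and Wwc1 (1776 bp) covered the end, and that of Ptpn14 (2045 bp) lay inside the gene. TEAD and SRF matches in the sites of these lists are shown because both factors are known regulators of such genes, with the match in capitals. A further TEAD match in the Actg1 site and the TEAD match in the Myl12a site are not shown. The SRF match listed for Myl6 lay 404 bp beyond the end of Myl6, in a 3′ UTR of another coding gene.
Amotl2, TEAD, chr9:102734158-102734185, minus strand: ctccagcttggACATTCCtcaacgtggc
Ankrd1, TEAD, chr19:36110744-36110771, plus strand: caagttccaaACATTCCccacacccttg
Myof, TEAD, chr19:37898776-37898803, minus strand: ccaactgaggcACATTCCccagcctctt
Ptpn14, TEAD, chr1:189876307-189876334, plus strand: gagacagaggACATTCCttcctaagtta
Wwc1, TEAD, chr11:35838879-35838906, plus strand: tcccaaaaatACATTCCtaaatatacaa
Actg1, TEAD, chr11:120345394-120345421, plus strand: gaccatggctACATTCCttacttgttca
Actg2, SRF, chr6:83512118-83512145, plus strand: agggccactCCATAAATGGaaacccaaa
Myl6, SRF, chr10:128490442-128490469, plus strand: cattccttcCCTTATTAGGgaggaggca
Thus 5 of the 7 YAP and TEAD targets held a TEAD match within the site, while Ccn1 and Nuak2 held none. A search of whole sites finds more matches in wide sites. Over all sites at gene ends 14.1% held a TEAD match by this search, and of those of 1500 bp or more 34.3% (27.5 to 41.8) did, compared with 15.5% and 37.2% of the other sites away from starts. The 7 sites were between 699 and 2045 bp wide, and nothing is read from their count.

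**Figure D5:**
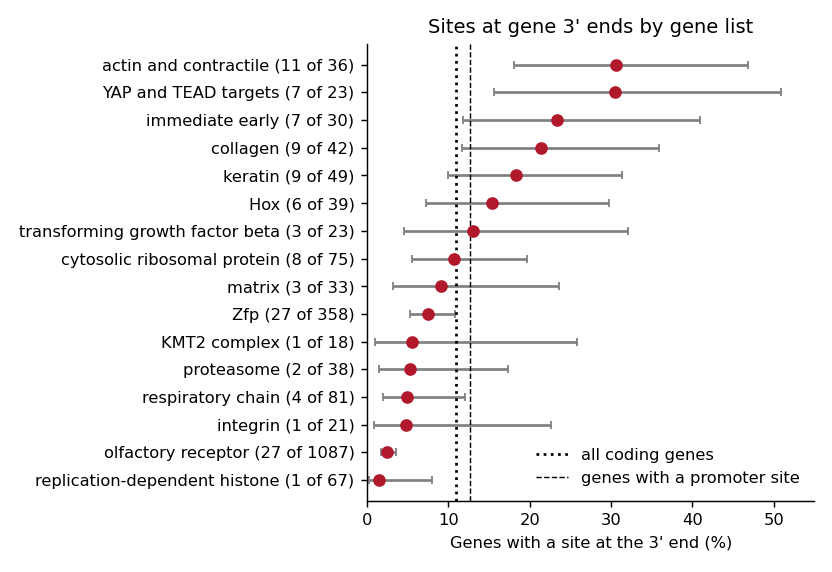
Share of genes with a site at the 3′ end (x axis, %) for 16 gene lists (y axis, with the number of genes with a site and in the list), with 95% Wilson intervals. The dotted line marks all coding genes (10.9%) and the dashed line genes with a promoter site (12.7%), and the actin and the YAP and TEAD lists lie to the right of both with their whole interval.

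The immediate early genes with a site were Dusp5, Fosl2, Gadd45b, Klf4, Klf6, Maff and Sgk1. Klf6, a zinc finger factor, had the widest, 1569 bp over the end, with 1 SRF match. Sgk1, a serum-induced kinase, had one of 1548 bp from 94 bp downstream. The site of Fosl2, which encodes the AP-1 subunit FRA2, was 790 bp wide and 316 bp downstream. That of Klf4 was 456 bp wide and 397 bp downstream. Neither Fos nor Egr1 had a site at its end.

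The collagens with a site included Col6a1 (2181 bp, 147 bp downstream), Col5a2 (185 bp, inside the gene) and Col2a1 (818 bp, over the end). Of 33 other matrix genes 3 had a site, namely Lamb1, Thbs1 and Tnc, and of 23 genes of transforming growth factor beta signalling 3, among them Pmepa1 and Smurf1. The 6 Hox genes with a site (15.4% of 39) were Hoxa6, Hoxb8, Hoxc6, Hoxd8, Hoxd11 and Hoxd12, which lie in dense clusters with many starts nearby. Among the KMT2 complex genes, to which Ash2l belongs, 1 of 18 had a site, the methyltransferase gene Kmt2b with one of 279 bp over the end. Only 10 of the 18 had no start within 1500 bp of the end, among them Kmt2b and Ash2l, and Ash2l had no site in this window.

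The remaining lists, protocadherins aside, had shares below 10.9% over all their genes, ribosomal protein genes only just. Sites were present at 8 of 75 cytosolic ribosomal protein genes (10.7%, 5.50 to 19.7) and 4 of 81 respiratory chain genes (4.94%, 1.94 to 12.0). They were present at 2 of 38 proteasome genes (5.26%, 1.46 to 17.3) and 1 of 21 integrins (4.76%, 0.846 to 22.7). For these lists the interval held 10.9%. The interval lay below 10.9% for 27 of 358 Zfp genes (7.54%, 5.23 to 10.8). It also did for 1 of 67 replication-dependent histone genes (1.49%, 0.264 to 7.98) and 27 of 1087 olfactory receptor genes (2.48%, 1.71 to 3.59). Many ends of some families lay too near a start to be counted. Of the 67 histone genes 13 had no start within 1500 bp, and 1 of these had a site. Of the 75 ribosomal protein genes 25 had none so near, and 5 of these had a site (20%, 8.86 to 39.1), compared with 13% of all such ends. Protocadherins reached 22 of 67, but these genes shared 3 distinct ends with 3 distinct sites, as the members of a clustered family use the same last exons, and they count as 3.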

How the data were processed

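ATAC-seq was performed by the authors on 10 libraries of iMEF cells, per the titles of the samples. The extraction protocol in their labels describes cross-linked chromatin and ChIP, not transposition, so the library preparation rests on the titles and the study's methods. Per the labels, the processing used BWA, SAMtools, MACS2, deepTools and DESeq2 with mm10. Per the methods, reads were trimmed, aligned, filtered and merged by replicate before narrow peaks were called. Versions, thresholds, the handling of the Tn5 offset and of multi-mapping reads, and how peaks were joined over samples are not given in the sources used here, and each can change the number and edges of sites. The deposited table holds positions only, in 3 columns (chromosome, start, end), so that a count test could not be run. Positions were read as counted from 0 and are printed from 1.

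Starts and ends came from GENCODE vM21 (GRCm38), and sequence and the alternative annotation from RefSeq. The end of a gene is the last base of its annotated span. Shares carry 95% Wilson intervals and medians 95% order-statistic intervals. Named sites are the 5 widest, those at the gene ends with the most sites, the 5 with the most CpG per base, the 5 with the most AP-1 matches, the 5 with a CTCF match nearest the end, those at the limit of the window, and those at genes of the lists on early response, YAP and TEAD, actin, matrix and KMT2 genes. Sites of other lists (transforming growth factor beta, collagen, Hox) are named in addition, as are Fos and Egr1, picked after their values were seen. A few sites that these rules pick are not reported here. Members, lists and motifs were chosen with earlier results of these data known. The code for the rule and the motif search was checked on simulated data. There, 500 of 500 sites planted at ends and 0 of 500 planted at starts were counted. Their placement fixed these counts in advance, so the check concerns the code only and not the rule on real sites. Python 3.11.15, NumPy 2.4.6, SciPy 1.17.1, pandas and Matplotlib 3.10.9 were used.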

Additional observations from a re-analysis of the deposited data

Results flagged for a closer look

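Chromosome X was outside the comparisons above and held 40 sites at coding gene 3′ ends by the same rule, among 3580 sites in all. They lay at 39 of 948 coding genes (4.11%, 95% Wilson interval 3.02 to 5.57), compared with 10.9% of autosomal coding genes. Sites per Mb and the share of genes with a promoter site were not computed for chromosome X. Their part in this lower share was not tested. On chromosome Y 0 sites at gene ends were found among 19 sites, and 0 of 183 genes had one, which allows a share of up to 2.06% (upper Wilson bound).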

How the results depend on the processing

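No paired analysis was possible because only pooled positions were used. The limits are that sites of all conditions are pooled, that weak and strong sites count alike, and that the 3′ ends are those of the annotation, not of the transcripts made in these cells. Depth limits which weak sites were called. The number of sites was 1450 with a window of 250 bp, 3568 with 1 kb, 1248 when the middle of the site had to lie in the window, and 1213 when sites narrower than the list's median width were dropped. The share of coding genes with a site moved to 7.28%, 17.1%, 6.20% and 6.20% under these settings, to 15.1% with the ends of every coding transcript, to 11.7% with the RefSeq annotation and to 7.74% when 3 kb either side of starts was left out. The median width moved to 704.5 bp (250 bp), 622 bp (1 kb), 549 bp (middle in the window) and 939 bp (wide sites only), the last by construction. Searching the whole site moved the median GC content to 48.2%, the CTCF share to 9.27% and the AP-1 share to 26.1%. The median GC content and both motif shares stayed within their intervals under the other 8 alternatives, where the CTCF share ranged from 5.20% to 6.35% and the AP-1 share from 11.1% to 12.5%. Among the other sites CTCF stayed between 2.86% and 3.38% and AP-1 between 16.3% and 18% under the 4 of these alternatives for which they were computed, a check added after the data were seen. The excess in width was absent with the middle rule (549 bp, 524 to 576, against 567 bp). For the median GC content and both motif shares, the order of sites at gene ends and other sites did not change under these 4.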
